A study of Caenorhabditis elegans with 2 samples.

Results

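The nuclear hormone receptor genes of Caenorhabditis elegans were taken as all nuclear protein-coding genes of the WBcel235 annotation named nhr- plus a number, together with daf-12, odr-7, unc-55, sex-1 and fax-1. They came to 274 of 19973 nuclear protein-coding genes. No measured value entered the choice. Sites of the transcription factor MEF-2 near them were read from peak lists of chromatin immunoprecipitation and sequencing (ChIP-seq) in whole animals of mixed sex at L1, the larval stage that follows hatching. There was 1 group, of 2 biological replicates, both of strain OP301, genotype unc-119(tm4063) III; wgIs301. The integrated transgene wgIs301 supplies MEF-2 fused to eGFP, so the sites are those of a tagged protein made from a transgene, and signal from different cell types is mixed. Neither a second stage nor a strain without the transgene was compared.

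Nuclear hormone receptors are transcription factors that bind DNA through a zinc finger domain, and many of them are switched by a small lipophilic ligand such as a sterol, a bile acid-like steroid or a fatty acid. The family is greatly expanded in nematodes. A smaller set of its genes has counterparts in insects and vertebrates, while most descend from an ancestor related to vertebrate HNF4. Most of the family lies on chromosome V, where many of the genes are clustered. The best known members act in fat and vitamin-linked metabolism, molting, the dauer decision, sex determination and the identity of single neurons; for most of the others no role was assigned here.

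A site is the point source of a peak, which lay within 1 bp of the middle of the peak in 98.4% of thresholded entries. Each gene was searched from 1000 bp upstream to 200 bp downstream of its outermost annotated 5' end (the 5' end window), up to 5 kb upstream, which includes the upstream side of that window, and in its introns. The authors' thresholded list held 832 peaks (806 of them nuclear), the pooled relaxed list 28182, the replicate 1 list 30000 and the replicate 2 list 16385. The signal value printed with a site is the authors' own, has no stated scale, and is compared only within a list; a rank of 1 is the strongest entry. All 832 thresholded entries were the 832 strongest pooled ones, so listing follows the pooled strength, down to 27.4. Intervals are 95% Wilson intervals, which cover counting error only. Where a limit is given for a count of 0, it is 3 counts of the total, with the Wilson limit beside it. Genes are not replicates, neighbours can share a site, and no test was run on any share.

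Thresholded sites fell near 15 of the 274 receptor genes, and 17 distinct sites served them. The sequences under the sites that carry most of the description are shown first: those at the 5' ends of nhr-1, nhr-142 and nhr-48, the second site of nhr-48, which was the only one of the 17 with a MEF2 element, the strongest site of the family, upstream of nhr-88, and the strongest intron sites, of nhr-3, nhr-40 and nhr-19. Each is the stretch from 100 bp before to 100 bp after the point source, read from the RefSeq copy of WBcel235 (ce11), 5′ to 3′ on the forward strand. Capitals mark copies of GAGAGA, of the motif TGCGTCT or of the MEF2 element, on either strand; neighbouring copies can share bases and then run together. The coordinates are chrX:17513584-17513784 for nhr-1, chrV:5790968-5791168 for nhr-142, chrX:15707529-15707729 and chrX:15706166-15706366 for nhr-48, chrII:2973992-2974192 for nhr-88, chrX:14560340-14560540 for nhr-3, chrX:2598917-2599117 for nhr-40 and chrII:9603499-9603699 for nhr-19.
nhr-1, 5' end: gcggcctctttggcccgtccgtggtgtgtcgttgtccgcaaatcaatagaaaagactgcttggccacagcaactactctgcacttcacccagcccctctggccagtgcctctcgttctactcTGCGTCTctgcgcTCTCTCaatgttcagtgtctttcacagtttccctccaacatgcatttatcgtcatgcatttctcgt
nhr-142, 5' end: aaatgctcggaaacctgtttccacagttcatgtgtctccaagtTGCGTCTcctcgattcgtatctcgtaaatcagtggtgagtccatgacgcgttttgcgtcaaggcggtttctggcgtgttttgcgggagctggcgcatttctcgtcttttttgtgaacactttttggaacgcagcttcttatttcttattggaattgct
nhr-48, 5' end: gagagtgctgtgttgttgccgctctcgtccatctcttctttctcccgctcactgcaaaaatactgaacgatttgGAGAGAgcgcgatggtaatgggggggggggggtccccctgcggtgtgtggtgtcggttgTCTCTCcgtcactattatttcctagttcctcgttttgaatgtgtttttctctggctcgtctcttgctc
nhr-48, upstream: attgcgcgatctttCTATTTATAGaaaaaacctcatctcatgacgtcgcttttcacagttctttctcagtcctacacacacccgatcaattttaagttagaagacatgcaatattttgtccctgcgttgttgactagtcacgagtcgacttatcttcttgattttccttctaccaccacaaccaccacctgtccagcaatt
nhr-88, upstream: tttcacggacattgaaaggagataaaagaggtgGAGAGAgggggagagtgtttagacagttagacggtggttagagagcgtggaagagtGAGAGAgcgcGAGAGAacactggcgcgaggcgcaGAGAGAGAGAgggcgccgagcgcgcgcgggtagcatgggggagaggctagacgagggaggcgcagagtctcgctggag
nhr-3, intron: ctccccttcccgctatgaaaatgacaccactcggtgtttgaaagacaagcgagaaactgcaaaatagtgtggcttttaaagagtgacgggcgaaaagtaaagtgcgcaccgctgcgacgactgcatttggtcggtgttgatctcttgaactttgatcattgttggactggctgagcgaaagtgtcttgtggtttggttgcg
nhr-40, intron: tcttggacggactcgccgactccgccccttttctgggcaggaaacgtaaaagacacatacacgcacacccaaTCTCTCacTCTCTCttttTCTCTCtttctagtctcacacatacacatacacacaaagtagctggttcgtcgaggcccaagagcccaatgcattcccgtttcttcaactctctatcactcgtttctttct
nhr-19, intron: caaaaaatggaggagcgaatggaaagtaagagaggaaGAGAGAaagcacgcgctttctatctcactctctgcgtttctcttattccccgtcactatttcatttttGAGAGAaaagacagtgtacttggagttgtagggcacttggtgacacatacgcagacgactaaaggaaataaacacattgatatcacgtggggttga

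MEF2 family proteins bind an A/T-rich element, and that element was rare under the receptor sites. It stood at 1 of the 17 sites (5.88%, interval 1.05 to 27.0), in the second sequence of nhr-48, where its strict form runs in capitals near the left end. Windows of the same 201 bp centred 500 bp to either side held it in 3 of 34 (8.82%). Among all nuclear thresholded sites the share was 40 of 806 (4.96%), with 6.51% in the flanks. Over the 532 pooled sites of receptor genes it was 31 (5.83%, interval 4.14 to 8.15), with 8.27% in the flanks, and over all 28155 nuclear pooled sites 7.11%, with 7.51% in the flanks. At neither set of receptor sites was the share at the site above that in its own flanks. The strict form of the element was far rarer. It stood at 1 of the 17 sites and in 0 of 34 flanks, and at 3 of the 532 pooled sites (0.564%, interval 0.192 to 1.64) and in 0.282% of their flanks. These counts are too small to show a direction at receptor sites. Within 50 bp it stood at 0 of the 17 and 0 of 34 flanks, and at 0.188% both of the 532 and of their flanks. All nuclear thresholded sites held it within 100 bp at 12 of 806 (1.49%, interval 0.854 to 2.58), above the 0.248% of their flanks. All nuclear pooled sites held it at 0.849%, with 0.696% in the flanks.

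Other short sequences recurred instead. GAGAGA, searched with its reverse complement, stood at 11 of the 17 sites (64.7%, interval 41.3 to 82.7) and in 2 of the 34 flanking windows (5.88%). TGCGTCT, likewise on both strands, stood at 5 of 17 (29.4%, interval 13.3 to 53.1) and in 0 of 34 flanks. At 13 of the 17 sites at least one of them was present. Both sequences were picked after the sites had been read, so these shares are descriptions of how they were picked. Neither was peculiar to the family: all 806 nuclear thresholded sites held GAGAGA in 52.0%, against 10.5% of flanks, and TGCGTCT in 20.7%, against 1.92% of flanks. Over pooled sites the shares were lower, 18.2% for GAGAGA at receptor genes and 16.8% at all sites, and 5.08% and 3.97% for TGCGTCT in the same order.

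Across whole 5' end windows of 1201 bp, whether or not they held a site, GAGAGA was found at 146 receptor genes (53.3%) and at 50.9% of the other genes. TGCGTCT was found at 57 receptor genes (20.8%) and at 12.8% of the others. The MEF2 element was found at 92 receptor genes (33.6%) and at 37.6% of the others. The 201 bp windows of the 17 sites ranged from 40.3% A and T at nhr-88 to 71.6% at the site of nhr-84 and nhr-102, with a median of 55.7%, beside 54.7% for all nuclear thresholded sites.

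At 5' ends the thresholded list named 4 receptor genes, nhr-1, nhr-142, nhr-48 and nhr-49. This is 1.46% of the family (interval 0.569 to 3.69), beside 2.93% of all nuclear protein-coding genes, which lies inside the interval. Within 5 kb upstream there were 12 genes (4.38%, interval 2.52 to 7.50), beside 6.05% of all genes. In introns there were 4 genes (1.46%, interval 0.569 to 3.69), beside 0.746% of all genes. In any of the 3 places there were 15 (5.47%, interval 3.35 to 8.83), beside 6.74%. The family thus lay below the share of all genes at 5' ends and upstream and above it in introns, with each share of all genes inside the family's interval.

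In the pooled relaxed list the family and the genome were close. A 5' end site was found at 105 receptor genes (38.3%, interval 32.8 to 44.2), beside 38.5% of all genes. Within 5 kb upstream the count was 192 (70.1%), beside 72.8%. Introns held a site in 77 genes (28.1%, interval 23.1 to 33.7), beside 24.4%, and any place in 211 (77.0%), beside 78.0%.

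The replicate lists differed in where the family stood. Replicate 1 had a 5' end site at 119 receptor genes (43.4%, interval 37.7 to 49.4), beside 39.6% of all genes, an upstream site at 218 (79.6%), beside 75.9%, an intron site in 86 (31.4%, interval 26.2 to 37.1), beside 25.9%, and a site in any place at 230 (83.9%), beside 80.8%. Replicate 2 had a 5' end site at 66 (24.1%, interval 19.4 to 29.5), beside 25.3%, an upstream site at 146 (53.3%), beside 55.3%, an intron site in 60 (21.9%, interval 17.4 to 27.2), beside 16.0%, and a site in any place at 171 (62.4%), beside 62.0%. At 5' ends and upstream the family was thus slightly above all genes in replicate 1 and slightly below them in replicate 2, as in the pooled list. Each of these shares of all genes lay inside the family's interval, and the 5' end order was not stable. With sites given to the nearest gene only, the family stood above all genes in the pooled list (36.5%, beside 32.4%) and in replicate 2 (22.6%, beside 20.6%). On chromosome V it was above other genes there in both places in each relaxed list, though not in the thresholded list, as given below. In replicate 1 the share of other genes on V lay below the family's interval there. This held at 5' ends (34.3%, interval 34.7 to 49.5) and upstream (70.6%, interval 74.9 to 86.6). In introns the family was above all genes in each of the 4 full lists, by more away from chromosome V than on it, as given below. In both replicate lists the share of all genes in introns lay below the family's interval. Among the 832 strongest entries of replicate 2 alone this turned round, with intron sites in 2 receptor genes (0.730%), beside 0.821% of all genes.

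**Figure D1:**
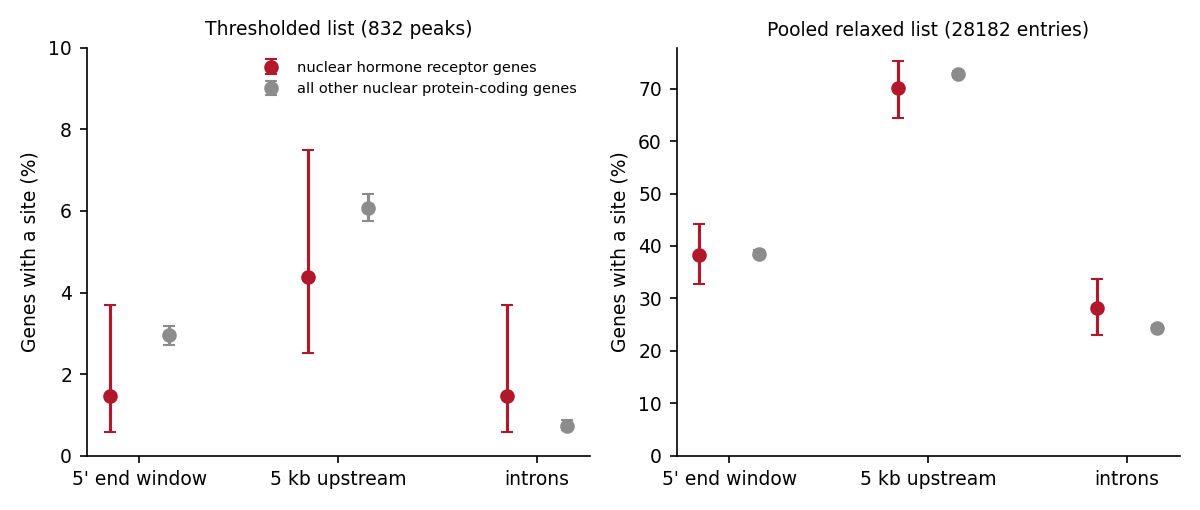
Share of genes with a site (y axis, %) in the 5' end window, up to 5 kb upstream and in introns (x axis), for the thresholded list at left and the pooled relaxed list at right. Points are nuclear hormone receptor genes (red) and all other nuclear protein-coding genes (grey), with 95% Wilson intervals; at 5' ends the receptor genes stood at 1.46% in the thresholded list and 38.3% in the pooled list.

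Every receptor gene can be placed by these lists. Of the 274, 15 had a thresholded site in some place, 211 a pooled one, and 63 no pooled site in any place (23.0%, beside 22.0% of all genes). For 16 receptor genes (5.84%, beside 10.4% of all genes) none of the 4 lists held a site: nhr-37, nhr-51, nhr-67, nhr-74, nhr-108, nhr-113, nhr-165, nhr-175, nhr-221, nhr-242, nhr-244, nhr-245, nhr-246, nhr-251, nhr-259 and nhr-267. Among them is nhr-67, the counterpart of the insect gene tailless; it is a member of the conserved list, and the other 15 are given with their values already known. The 5' end site was in both replicate lists for 43 receptor genes (15.7%, beside 16.1% of all genes), in replicate 1 alone for 76 (27.7%, beside 23.4%), in replicate 2 alone for 23 (8.39%, beside 9.18%) and in neither for 132 (48.2%, beside 51.2%).

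The strongest thresholded 5' end site lay at nhr-1, on chromosome X. Its peak spanned 17513514 to 17513853, with the point source 379 bp upstream of the gene, which runs from 17514063 to 17528197 on the forward strand. The pooled signal value was 47.4, rank 211 of 28182. The site had 24.1 in replicate 1 (rank 531) and 23.2 in replicate 2 (rank 58), so it stood higher in the order of replicate 2. In the nematode Pristionchus pacificus, nhr-1 acts with nhr-40 in the choice between mouth forms. The sequence above holds 1 GAGAGA and 1 TGCGTCT, and no other gene's 5' end window held the site.

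The site of nhr-142, on chromosome V from 5790898 to 5791237, lay between divergent genes. It was 515 bp upstream of nhr-142 (5785957 to 5790553, reverse strand) and 162 bp upstream of F44E7.9, which is the nearer 5' end. Its pooled value was 37.3 (rank 413), with 26.9 in replicate 1 (rank 424) and 9.67 in replicate 2 (rank 679). Both replicates kept it among their 832 strongest entries. It held TGCGTCT and no GAGAGA. Given to the nearest gene alone, it is no longer a site of the family.

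The receptor gene nhr-48, a relative of daf-12 and nhr-8 and of the vertebrate vitamin D and pregnane X receptors, had a pair of thresholded sites upstream on chromosome X. The nearer one spanned 15707459 to 15707798, 584 bp upstream of the gene (15708213 to 15716875, forward strand). It had a pooled value of 36.6 (rank 431), 26.6 in replicate 1 (rank 434) and 10.1 in replicate 2 (rank 610), and held 2 copies of GAGAGA. The farther one spanned 15706096 to 15706435, 1947 bp upstream, and had 35.6 (rank 460), 25.9 in replicate 1 (rank 465) and 8.50 in replicate 2 (rank 895), just outside the 832 strongest there. The pair were close in strength in each list. It is the farther one that held the MEF2 element, and it held neither GAGAGA nor TGCGTCT.

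The receptor gene nhr-49, which acts in fatty acid oxidation, desaturation and the response to fasting, had a site on chromosome I from 9869199 to 9869538, 282 bp upstream of the gene (9869651 to 9874680, forward strand). The pooled value was 35.8 (rank 452). The site ranked 537 in replicate 1, at 24.0, and 532 in replicate 2, at 10.8, the closest agreement of ranks among the 4 genes. It held 1 GAGAGA.

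Just under the limit of 832 came nhr-47 and nhr-32. The site of nhr-47, on chromosome V, lay 11 bp upstream of the gene and also in the 5' end window of dnj-19, a DnaJ co-chaperone gene. It had a pooled value of 26.8 (rank 857), 17.0 in replicate 1 (rank 1275) and 13.0 in replicate 2 (rank 347), where it was stronger than the sites of nhr-48, nhr-49 and nhr-142. The site of nhr-32, on chromosome X, lay 341 bp upstream and had 26.5 (rank 877), 20.0 in replicate 1 (rank 857) and 3.24 in replicate 2 (rank 6988). A gap followed: the next receptor gene in the order, nhr-68, was at rank 1708.

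**Figure D2:**
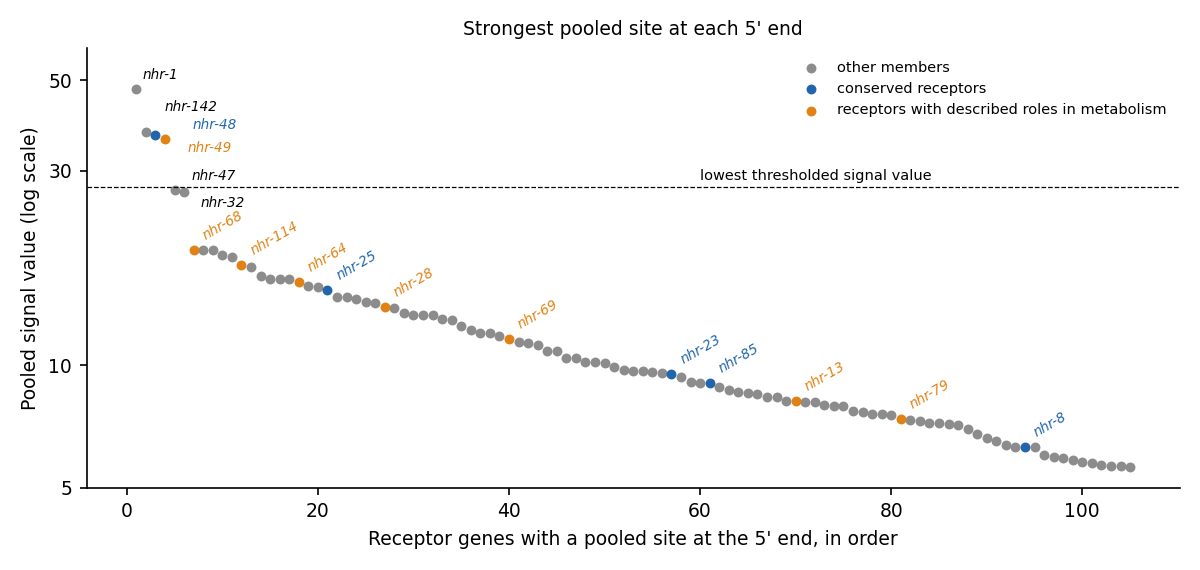
Signal value of the strongest pooled site in the 5' end window (y axis, log scale, the authors' unit) for the 105 receptor genes that had one, ordered from strongest to weakest (x axis). Colours mark conserved receptors and receptors with described roles in metabolism; the dashed line is the lowest thresholded value, 27.4, with 4 genes above it and nhr-47 and nhr-32 just under it.

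Below these, the strongest pooled 5' end sites belonged to nhr-68 (19.2), a gene of the propionate shunt, then nhr-255 (rank 1716), nhr-26 (rank 1737), nhr-88 (18.6, 147 bp downstream of the 5' end), nhr-180 (rank 1861), nhr-114 (17.6), nhr-87 (rank 2087), nhr-158 (rank 2327) and nhr-231 (rank 2409). Their support in the replicates was uneven. The sites at nhr-88, nhr-114, nhr-158 and nhr-231 overlapped an entry of replicate 1 (ranks 1371, 1062, 1602 and 1600) and none of replicate 2. That of nhr-87 ranked 7670 in replicate 1 and 972 in replicate 2.

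Taken over all 105, the strongest 5' end site of a receptor gene had a median pooled value of 9.69 (quartiles 7.59 and 13.9, highest 47.4), beside 9.12 for other genes with such a site (quartiles 7.10 and 13.7, highest 164). At the top of the list the shares lay below those of other genes. The strongest site of a receptor gene was among the 832 strongest for 3.81% of these genes, beside 7.66% of the others, and among the 1664 strongest for 5.71%, beside 13.9%. Down to rank 5000 the shares were 36.2% and 31.9% in the same order, and down to rank 10000 they were 55.2% and 49.9%. The family was thus below other genes at the head of the order, on counts of 4 and 6 genes. It was slightly above them down to ranks 5000 and 10000, on counts of 38 and 58. No interval was computed for these shares and no test was made of them.

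Few of these sites were shared between genes. The strongest 5' end site also lay in the window of another protein-coding gene for 13 of the 105 receptor genes (12.4%), beside 28.8% of other genes with a site. The other gene was itself a receptor for 4 of them, among them the neighbours nhr-42 and nhr-107 on chromosome V, which shared a site of pooled value 16.3 (rank 2423); this pair was picked with the values in view. The median position was 266 bp upstream in receptor genes and 295 bp upstream in other genes, and 19.0% and 12.9% in the same order lay in the 200 bp downstream of the 5' end. Of the 105 sites, 84.8% overlapped an entry of replicate 1, 40.0% one of replicate 2 and 31.4% one of both, beside 84.0%, 42.4% and 34.5% for other genes.

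Further upstream, 8 thresholded sites served 9 receptor genes, the farther site of nhr-48 among them. The strongest of all 17 belonged to nhr-88, on chromosome II from 2973922 to 2974261, 2547 bp upstream of the gene (2976639 to 2987023, forward strand). It had a pooled value of 70.0 (rank 77), 41.7 in replicate 1 (rank 135) and 29.0 in replicate 2 (rank 28). Each list thus placed it near the top. Its window was the least A/T-rich of the 17 and held 6 copies of GAGAGA. The next protein-coding 5' end, that of lido-7, was 14208 bp away.

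The site of nhr-20 lay on chromosome III from 4237673 to 4238012, 4624 bp upstream, with a pooled value of 38.8 (rank 360), 23.8 in replicate 1 (rank 556) and 16.3 in replicate 2 (rank 186). A further 5' end, that of F43C1.7, was 4732 bp from it, almost as near. On chromosome IV, nhr-105 had a site 2129 bp upstream (7047857 to 7048196) with 29.6 (rank 698), 20.7 in replicate 1 (rank 797) and 6.57 in replicate 2 (rank 1490). It held 5 copies of GAGAGA and 2 of TGCGTCT, the most of any of the 17 counted together. Also on chromosome IV, nhr-258 had a site 4105 bp upstream (8040663 to 8041002) with 30.5 (rank 644), 26.9 in replicate 1 (rank 422) and 5.96 in replicate 2 (rank 1811).

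On chromosome V, 3 of these upstream genes lie among other receptor genes. The site of nhr-157 (3870395 to 3870734, 1560 bp upstream) had 36.4 (rank 436) and 30.3 in replicate 1 (rank 314), but 2.68 in replicate 2 (rank 10165), so it rested almost wholly on replicate 1. It held neither GAGAGA nor TGCGTCT. The neighbours nhr-84 and nhr-102, which run in the same direction, shared the site from 15880700 to 15881039, 1262 bp upstream of nhr-84 and 4462 bp upstream of nhr-102. It had 30.2 (rank 664), 16.4 in replicate 1 (rank 1382) and 10.4 in replicate 2 (rank 582). It was the only one of the 17 outside the 832 strongest of replicate 1, and the most A/T-rich of them.

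Both an upstream and an intron site were found at nhr-17 on chromosome X (12663837 to 12667854, reverse strand). The upstream one (12670392 to 12670731, 2708 bp) had 29.8 (rank 691), 24.1 in replicate 1 (rank 527) and 4.52 in replicate 2 (rank 3317). The intron one (12664970 to 12665309, between exons that end at 12664750 and start at 12665815) had 31.2 (rank 612), 30.3 in replicate 1 (rank 315) and 3.94 in replicate 2 (rank 4481). Both were weak in replicate 2. The intron site also lay 1237 bp upstream of nlp-76, a neuropeptide-like protein gene, which was nearer than the 5' end of nhr-17.

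Intron sites numbered 5, and 3 of them lay above the median of the other nuclear thresholded sites, 36.7. The site of nhr-3 on chromosome X (14560270 to 14560609, in the 926 bp intron between exons ending at 14559740 and starting at 14560667) had a pooled value of 54.8 (rank 144) and 53.0 in replicate 1, where at rank 74 it was the strongest of all 17. In replicate 2 it had 2.84 (rank 9125). Its window, printed above, held neither GAGAGA nor TGCGTCT. Of the 17 sites, those of nhr-3 and nhr-157 were the weakest by rank in replicate 2.

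The gene nhr-40 acts in embryonic and early larval development, with defects of muscle and movement in its mutants. Its site on chromosome X (2598847 to 2599186) lay in the 5298 bp intron between exons ending at 2594109 and starting at 2599408, 5014 bp downstream of the outermost 5' end and 391 bp upstream of the second annotated 5' end of nhr-40. It had a pooled value of 48.5 (rank 191), 33.6 in replicate 1 (rank 232) and 8.59 in replicate 2 (rank 879). With the 5' ends of all transcripts in use, nhr-40 was the fifth receptor gene with a thresholded site at a 5' end.

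On chromosome II, nhr-19 (9598180 to 9605526, reverse strand) had a pair of sites in a single intron of 4213 bp, between exons that end at 9600932 and start at 9605146. The one nearer the 5' end (9603429 to 9603768, 1927 bp) had 47.1 (rank 217), 34.1 in replicate 1 (rank 217) and 12.6 in replicate 2 (rank 375). The other (9601066 to 9601405, 4290 bp) had 31.3 (rank 607), 23.2 in replicate 1 (rank 594) and 8.66 in replicate 2 (rank 864). The first was thus higher in all 3 lists, and both held GAGAGA. The second lay nearer to the 5' end of mrpl-53, a mitochondrial ribosomal protein gene, at 3614 bp.

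**Figure D3:**
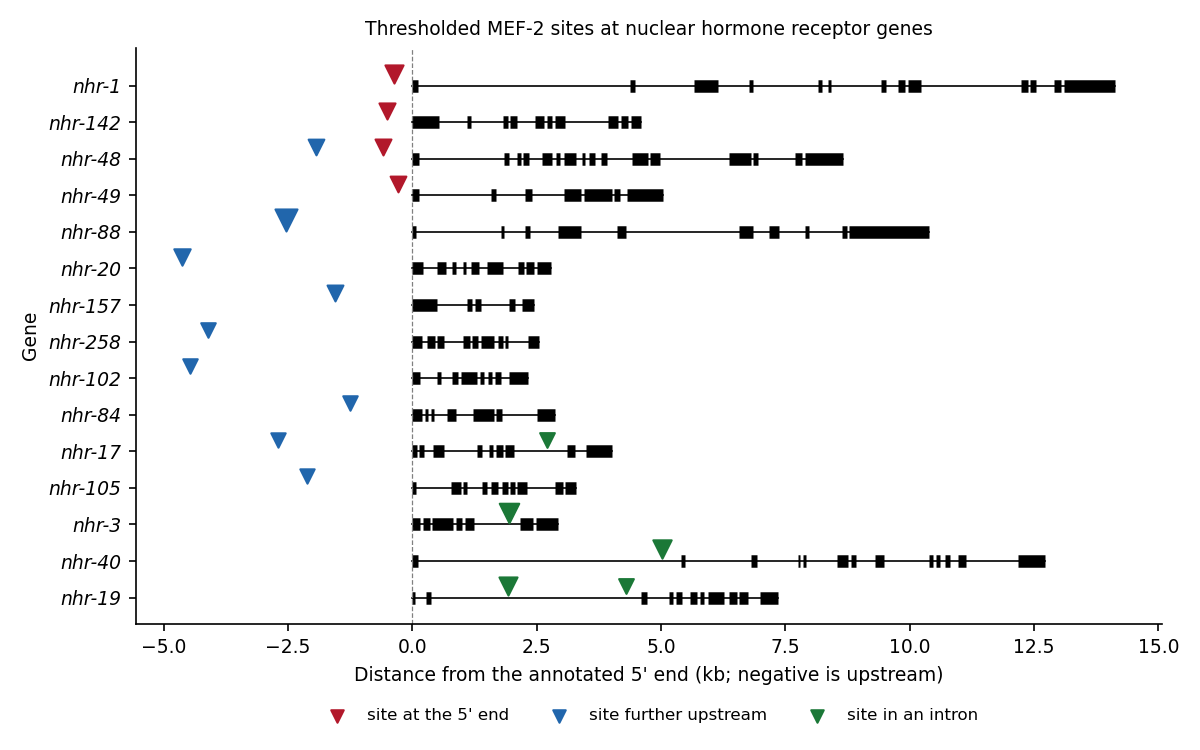
The 15 receptor genes with a thresholded site, drawn from the annotated 5' end (x axis, kb, negative is upstream) with exons as blocks. Triangles are sites at the 5' end (red), further upstream (blue) or in an intron (green), with area in proportion to the pooled signal value, from 29.6 at nhr-105 to 70.0 at nhr-88.

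The replicates supported these sites unequally. All 17 overlapped an entry in both relaxed lists, as did most other nuclear thresholded sites, for which no share was computed. Such overlap needed only 1 bp and counted weak entries, down to rank 10165 in replicate 2 for nhr-157. Among the 832 strongest entries of replicate 1 stood 16 (94.1%, interval 73.0 to 99.0), beside 81.2% of the other nuclear thresholded sites. Among those of replicate 2 stood 8 (47.1%, interval 26.2 to 69.0), beside 67.4%. In both stood 7 (41.2%, interval 21.6 to 64.0), beside 51.8%. These 7 were the 5' end sites of nhr-1, nhr-142, nhr-48 and nhr-49, the upstream sites of nhr-88 and nhr-20, and the stronger intron site of nhr-19. The median pooled value of the 17 was 36.4, beside 36.7 for the other nuclear thresholded sites.

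**Figure D4:**
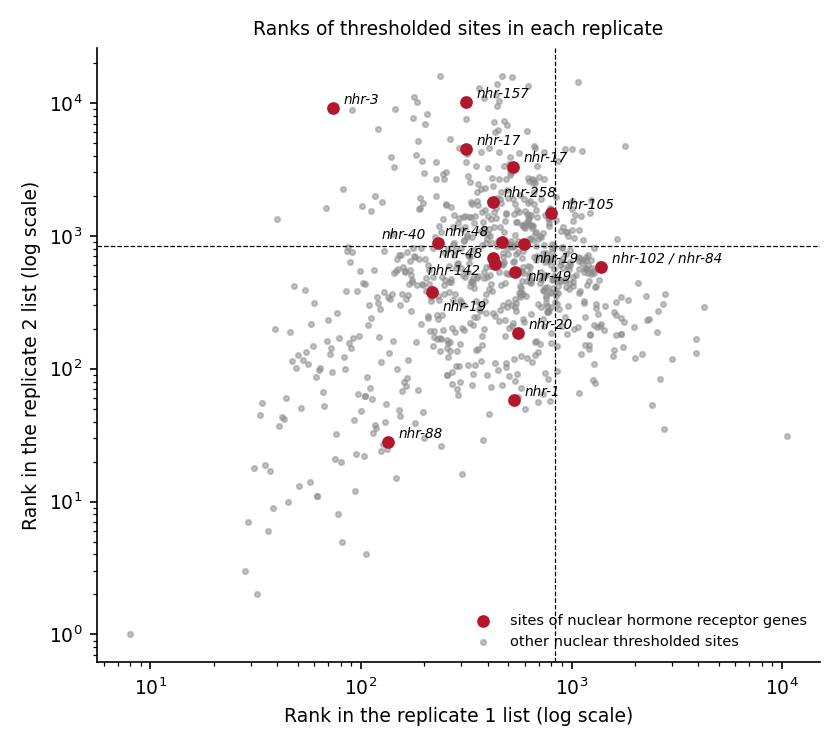
Rank of each nuclear thresholded site in the replicate 1 list (x axis) and the replicate 2 list (y axis), both on log scales, where a low rank is a strong entry. Red points are the 17 sites of nuclear hormone receptor genes, grey points the other sites found in both lists, and dashed lines mark rank 832; nhr-88 sits low on both axes, nhr-1 low in replicate 2, and nhr-3 and nhr-157 high in replicate 2.

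Each replicate taken alone named a few further genes among its 832 strongest entries, chosen after their values were seen. In replicate 1, 1 site (rank 722) lay 3273 bp upstream of nhr-158 and in an intron of nhr-159, and 1 lay in an intron of nhr-46 (rank 805). In replicate 2 the 5' end window of nhr-3 held a site 983 bp upstream (rank 796), apart from its intron site. Other replicate 2 sites were that of nhr-47 described above, one 3614 bp upstream of nhr-35 (rank 791), and one in an intron of daf-12 (rank 755, 1725 bp downstream of the 5' end).

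By role, the conserved receptors had thresholded sites at about the share of all genes. Of 15, 1 had such a site in some place, nhr-48 (6.67%, interval 1.19 to 29.8), beside 6.74% of all genes. At the 5' end 5 had a pooled site (33.3%, interval 15.2 to 58.3), beside 38.5% of all genes: nhr-48 (36.6), nhr-25 (15.3), nhr-23 (9.52), nhr-85 (9.04) and nhr-8 (6.29). The genes nhr-23 and nhr-25, counterparts of insect HR3 and FTZ-F1, drive molting, and nhr-85, related to E75 and REV-ERB, acts in developmental timing. The gene nhr-8 acts in sterol balance and resistance to toxins. In any place 12 of 15 had a pooled site (80.0%), beside 78.0% of all genes, and nhr-67, nhr-111 and nhr-236 had none. Of the rest, nhr-6, the NR4A counterpart, had its strongest site in an intron (10.4), as did nhr-41 (rank 4900), related to insect HR78, while nhr-91, related to GCNF, had its strongest upstream (7.63).

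The gene daf-12, the receptor for dafachronic acids that decides between dauer and reproductive growth, had no pooled site at its outermost 5' end. Its introns, 26.5 kb in all, held 8 pooled sites, the strongest 1795 bp downstream of the 5' end with a pooled value of 18.7 (rank 1799). The strongest intron entries near that place had 16.1 in replicate 1 (rank 1464) and 9.20 in replicate 2 (rank 755). By contrast sex-1, which counts X chromosomes in sex determination, had pooled sites only upstream, the strongest at 9.50 (rank 9021). The neuronal genes unc-55, the COUP-TF counterpart that sets synaptic pattern in motor neurons (7.08, rank 18335), fax-1, the PNR counterpart that specifies interneurons (6.60, rank 21121), and odr-7, needed for AWA olfactory neurons (6.08, rank 24619), each had 1 weak pooled site upstream. Of the 4 receptors for neuronal identity, nhr-67 included, 0 had a thresholded site, beside 6.74% of all genes. At the 5' end 0 had a pooled site, beside 38.5% of all genes. At this number, a count of 0 allows a share of up to 75% (Wilson limit 49.0%). In the replicate 2 list fax-1 did have a site in its 5' end window, 123 bp downstream of the 5' end (2.31, rank 13282).

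Receptors with described roles in metabolism all had a pooled site, and no test was made against other genes. The 14 had one in some place (interval 78.5 to 100), beside 78.0% of all genes, so most genes of any kind had one. At the 5' end 9 had one (64.3%, interval 38.8 to 83.7), beside 38.5% of all genes. Of the 14, nhr-49 alone had a thresholded one (7.14%, beside 6.74% of all genes). After nhr-49 came nhr-68 (19.2), nhr-114 (17.6), which protects the germline on some diets, nhr-64 (16.0), nhr-28 (13.9) and nhr-69 (11.6). The gene nhr-10, which acts with nhr-68 in the propionate shunt, had its strongest site upstream (21.0, rank 1412). Of 6 receptors of stress and xenobiotic response, 3 had a pooled 5' end site, and nhr-49 was again the 1 with a thresholded site. Of 6 receptors of molting and epidermis, 3 had a pooled 5' end site and 0 a thresholded one, which allows a share of up to 50% (Wilson limit 39.0%). Of 4 receptors of sex, dauer and timing, 2 had a pooled 5' end site and 0 a thresholded one (a limit of 75%; Wilson limit 49.0%). The lists overlap. The remaining 242 receptor genes, in no list, had thresholded sites at 13 (5.37%, interval 3.17 to 8.97), beside 6.74% of all genes. They had pooled 5' end sites at 91 (37.6%, interval 31.7 to 43.9), beside 38.5%.

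Genes that work with the receptors gave a mixed picture. Of 6 co-regulator genes, 2 had a thresholded site at the 5' end, cbp-1 and din-1 (33.3%, interval 9.68 to 70.0), beside 2.93% of all genes. This short list was chosen with earlier results of these data known. Its share is therefore a description only, and no test was made of it. The CBP/p300 acetyltransferase gene cbp-1 had a pooled value of 58.6 (rank 121, 915 bp), with ranks 148 in replicate 1 and 99 in replicate 2. The DAF-12 corepressor gene din-1 had 55.3 (rank 140, 785 bp), ranks 237 and 169 in the same order, and 13 pooled sites in all. Both values exceed that of any receptor 5' end site, and all 6 co-regulator genes had some pooled site, as did 78.0% of all genes.

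Of 6 genes for the ligands of DAF-12, which make or move its sterol precursors, 0 had a thresholded site (a limit of 50%; Wilson limit 39.0%), beside 6.74% of all genes. At the 5' end 2 had a pooled site (33.3%, interval 9.68 to 70.0), beside 38.5% of all genes. They were ncr-1 (22.6, rank 1227), a Niemann-Pick C1 counterpart, and daf-9 (6.28), the cytochrome P450 that makes dafachronic acids. Of 15 described targets of the receptors, 2 had a thresholded site in some place (13.3%, interval 3.74 to 37.9), beside 6.74% of all genes, which lies inside the interval. The fasting-induced acyl-CoA synthetase gene acs-2, a target of NHR-49, had one 727 bp upstream at 41.7 (rank 295), with ranks 351 in replicate 1 and 321 in replicate 2. The sex switch gene xol-1, which SEX-1 represses, had one 4901 bp upstream at 65.4 (rank 98). Of the 15, 5 had a pooled site at the 5' end (33.3%, beside 38.5% of all genes) and 13 in some place (86.7%, beside 78.0%).

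The genome position of the family went with its sites. Of the 274 genes, 167 (60.9%) lie on chromosome V, beside 24.5% of other genes. On chromosome V, 4 of 167 receptor genes had a thresholded site in any place (2.40%, interval 0.935 to 6.0), beside 4.14% of other genes there. On the remaining chromosomes together, a split made after the values were seen, 11 of 107 had one (10.3%, interval 5.84 to 17.5), beside 7.60%. On X, 5 of 27 had one (18.5%, interval 8.18 to 36.7), beside 7.25%. Chromosome V is thus where most receptor genes lie and where the share was lowest, for receptor genes and other genes alike.

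The pooled list also varied between chromosomes, but in it the family's share was lowest on I and not on V. All 27 receptor genes on X had a pooled site in some place (interval 87.5 to 100), beside 81.5% of other genes on X, and 59.3% (interval 40.7 to 75.5) had one at the 5' end, beside 39.3%. On chromosome I, 11 of 24 had one in some place (45.8%, interval 27.9 to 64.9), beside 83.1% of other genes there. On chromosome V, 77.2% had one, beside 72.2%. X and I thus stood at opposite ends, above and below their own chromosome's other genes. Pooled intron sites were found in 19.2% of receptor genes on chromosome V (interval 13.9 to 25.8), beside 17.7% of other genes there. On the remaining chromosomes together they were found in 42.1% (interval 33.1 to 51.5), beside 26.5%. In replicate 1 these shares were 21.6% beside 18.6% on V and 46.7% beside 28.2% elsewhere. In replicate 2 they were 12.6% beside 11.4% on V and 36.4% beside 17.5% elsewhere. At 5' ends on V the shares were 37.1% beside 33.0% (pooled), 41.9% beside 34.3% (replicate 1) and 22.2% beside 20.2% (replicate 2). Upstream on V they were 69.5% beside 67.4%, 81.4% beside 70.6% and 51.5% beside 48.4% in the same order. Elsewhere the 5' end shares were 40.2% beside 40.3%, 45.8% beside 41.2% and 27.1% beside 27.0%. The upstream ones were 71.0% beside 74.6%, 76.6% beside 77.5% and 56.1% beside 57.6%.

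**Figure D5:**
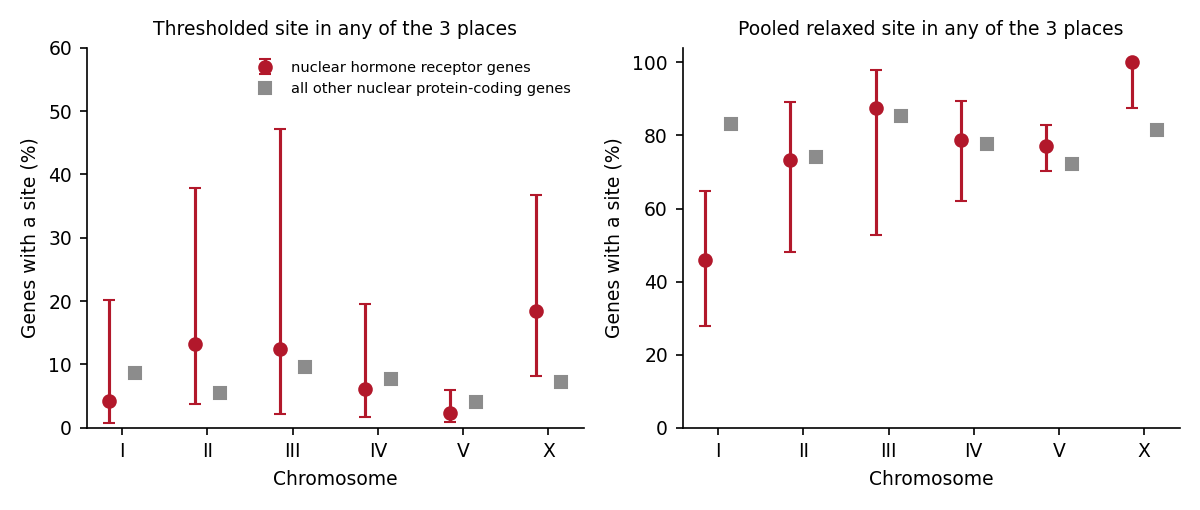
Share of genes with a site in any of the 3 places (y axis, %) on each chromosome (x axis), for the thresholded list at left and the pooled relaxed list at right. Red circles are nuclear hormone receptor genes with 95% Wilson intervals, grey squares all other nuclear protein-coding genes; receptor genes on X stood at 18.5% and 100%, those on V at 2.40% and 77.2%.

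The receptor genes were also divided by whether another receptor gene lay nearby, with no test of the difference. Of the 274, 150 lay within 10 kb of another, 121 of these on chromosome V; the distance of 10 kb was set after the values were seen. Among all genes, thresholded sites stood at 6.74% in any place, 2.93% at the 5' end and 0.746% in an intron. Of these 150, 3 had a thresholded site in any place (2.00%, interval 0.682 to 5.71), 0 at the 5' end and 0 in an intron (interval 0 to 2.50 for each). Of the 124 others, 12 had one in any place (9.68%, interval 5.62 to 16.2), 4 at the 5' end and 4 in an intron. In the pooled list 32.7% of the 150 (interval 25.7 to 40.5) and 45.2% of the 124 (interval 36.7 to 53.9) had a 5' end site, beside 38.5% of all genes. An intron site was found in 16.7% (interval 11.6 to 23.4) and 41.9% (interval 33.6 to 50.7) in the same order, beside 24.4%. The intron lengths of the 150 and the 124 were not compared. Chromosome and nearness to another receptor gene overlap here only in part. On chromosome V, 3 of the 121 genes near another had a thresholded site: nhr-84, nhr-102 and nhr-157. Of the 46 others there, nhr-142 alone had one. All 11 receptor genes with one on the remaining chromosomes had no other within 10 kb. This breakdown was made after the values were seen, and which feature goes with the sites was not tested.

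Intron length also differed between receptor genes and other genes. Receptor genes had a median of 936 bp of intron, beside 718 bp in other genes. Per length, the family's introns held 5 thresholded sites in 0.558 Mb, or 8.96 per Mb, beside 5.23 per Mb in other genes, and 181 pooled sites, or 324 per Mb, beside 272. The gene with the most pooled sites, nhr-27 on chromosome X, picked with its values in view, had 29, of which 26 lay in 101 kb of intron (256 per Mb), and the strongest of them was only at rank 5266. After it came nhr-40 with 14, nhr-34 with 12, nhr-1 with 11 and daf-12 with 10.

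The family was set beside 3 other large gene families. A thresholded 5' end site was found at 4 of 274 receptor genes (1.46%), at 2 of 25 hlh genes for helix-loop-helix factors (8.0%, interval 2.22 to 25.0), at 1 of 63 ceh homeobox genes (1.59%, interval 0.281 to 8.46) and at 0 of 193 str chemoreceptor genes, which allows a share of up to 1.55% (Wilson limit 1.95%). Pooled 5' end sites were found at 38.3% of receptor genes, 28.0% of hlh, 30.2% of ceh and 19.7% of str genes (interval 14.7 to 25.9). Of the str genes 81.3% lie on chromosome V, more than of the receptor genes, and of the hlh genes 8.0%. No test was made between the families.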

How the data were processed

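Sites near nuclear hormone receptor genes were described from the 4 ce11 narrowPeak lists of the 2 replicates. Per the deposited file records, a control library entered the calling of the relaxed lists, from which the thresholded one was derived. For the aligner, peak caller and limit, nothing is given in the sources used. The signal value per peak is the authors' own, on a scale not stated in the deposited files; read counts and the control library were not analysed here, so depth is unknown. No listed peak ran past the end of its chromosome in WBcel235. Genes and exons came from Ensembl release 115. Overlap with replicate lists needed 1 bp. Shares and Wilson intervals were computed with Python 3.11.15 and SciPy 1.17.1, after the windows had been tested on simulated sites. With 1 group, no test was run. Named genes are those with a thresholded site, the 15 with the strongest pooled 5' end site, the conserved receptors with odr-7, and co-regulator, ligand and target genes with a thresholded site. Members, lists, windows and named genes were chosen with earlier results of these data known. Both short motifs, the 10 kb distance, the split without chromosome V, the union of the 3 places and the top entries of single replicates were added after values were seen. Alternatives covered window, 5' ends, overlap, nearest gene, thresholds, single replicates and element form.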

Additional observations from a re-analysis of the deposited data

How the results depend on the processing

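Counts of receptor genes stayed within 1.5 times of the reported value under the alternatives not listed here. With a 5' end window of 500 bp upstream to 100 bp downstream, thresholded sites fell at 2 genes (0.730%, beside 2.24% of all genes). Replicate 1 sites fell at 77 (28.1%, beside 26.3%) and replicate 2 sites at 43 (15.7%, beside 16.9%). With a stricter limit that kept the strongest 50% of thresholded peaks, 2 genes had a site at the 5' end (0.730%, beside 1.43% of all genes). Up to 5 kb upstream 4 had one (1.46%, beside 3.03%). With the 5000 strongest pooled entries, 38 had a pooled site at the 5' end (13.9%, beside 12.3% of all genes). Up to 5 kb upstream 65 had one (23.7%, beside 25.6%), and 23 had one in an intron (8.39%, beside 4.85%). At the 5' end the family thus turned to slightly above all genes, with no interval computed. The full pooled list gave the same turn with the shorter window, the 5' ends of all transcripts or the nearest gene only. With overlap of the whole peak in place of the point source, the family stayed slightly below all genes. The pooled 5' end order was thus not stable. In lists of thresholded size, replicate 1 alone gave 4 genes at the 5' end (1.46%, beside 2.68% of all genes). It gave 11 up to 5 kb upstream (4.01%, beside 5.79%) and 6 in introns (2.19%, beside 0.791%). Replicate 2 alone gave 6 at the 5' end (2.19%, beside 3.00%) and 11 upstream (4.01%, beside 6.33%). In introns it gave 2 (0.730%, below the 0.821% of all genes). The relaxed lists of replicate 2 and replicate 1 gave 66 and 119 genes at the 5' end. Upstream they gave 146 and 218, and in introns 60 and 86, with the shares of all genes printed above for those lists. Within 50 bp, 0 of 17 thresholded sites and 17 of 532 pooled sites held a MEF2 element, and in its strict form 3 of the 532 did within 100 bp. The cause of these shifts was not tested, beyond shorter windows and lists holding fewer sites. No paired analysis was possible because there was 1 group. Point sources at the middle of peaks of a set width limit how finely a site is placed, and with 4 or 5 thresholded sites in a place, 1 or 2 sites move a share by a large part.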
